A study of Mus musculus with 16 samples.

Results

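The nuclear genes of respiratory complexes III and IV and of ATP synthase (complex V) were compared between 2 genotypes of mouse ventricular myocytes. Genes were chosen by name, as rows of the deposited count table whose symbol starts with Uqcr, with Cox and a digit or with Atp5, or is Cyc1, with no pseudogene suffix and a mean count of at least 10 over the libraries. This gave 50 of the 35682 rows in the table. They comprised 9 genes of complex III, 23 of complex IV (14 subunits and 9 assembly factors) and 18 of complex V. Of the 67 rows with a matching name, 11 carried the pseudogene suffix and 6 fell below the mean count, namely Cox20b, Cox4i2, Cox6b2, Cox6c2, Cox7b2 and Cox8c. The mitochondrially encoded subunits and the inhibitor gene Atpif1 were not part of the selection and serve below as neighbours.

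The samples were 8 wild-type (WT) mice and 8 littermates carrying B3AR-Tg, a transgene whose label refers to the beta-3 adrenergic receptor. All 16 had undergone TAC (transverse aortic constriction, in which a band on the aorta puts the left ventricle under pressure load) 9 weeks before collection, and no group without surgery was analysed here. Myocytes were isolated by Langendorff perfusion and plated for 1 hour, and ribosomal RNA was depleted before stranded total RNA libraries were made. The promoter that drives the transgene, the sex and age of the mice and whether cells of several mice were pooled are not given in the sources used here; each library is labelled as its own biological replicate and is called an animal below.

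Complex III passes electrons from ubiquinol to cytochrome c, complex IV passes them from cytochrome c to oxygen, and both pump protons across the inner mitochondrial membrane. Complex V lets protons flow back through a rotating ring and uses the turn to make ATP. In each complex part of the core (cytochrome b alone in complex III) is encoded by mitochondrial DNA and the rest by nuclear genes, so assembly draws on transcripts of both genomes, and several complex IV subunits have a heart and muscle isoform beside a widely expressed one. The beating heart depends on this ATP supply, which makes the chain a common readout in studies of pressure overload.

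Library totals lay between 5985335 and 14365864 counts, and the members had between 2.12% and 2.90% of the counts of a library. Marker genes of myocytes were abundant in every animal, with summed levels between 58490 and 101000 CPM (counts scaled to a common library size with the TMM factors of edgeR). Of the 8 myocyte markers, 1 passed the genotype test, Ryr2, the sarcoplasmic calcium release channel (log2 fold change 0.46). Markers of other cells were low, and the tested ones of fibroblasts and endothelial cells all had lower estimates in B3AR-Tg. The 6 fibroblast markers summed to 34.3 to 101.3 CPM in WT and 9.80 to 42.8 CPM in B3AR-Tg. All 5 tested had negative estimates and 3 passed the genotype test, while the defining marker Tcf21 never exceeded 3 counts. The 6 endothelial markers summed to 77.5 to 113.9 CPM in WT and 36.1 to 142.9 CPM in B3AR-Tg. All 6 had negative estimates and 2 passed. None of the 6 mural markers and neither of the 2 tested leukocyte markers of 6 passed. The mural markers summed to 87.2 to 161.8 CPM in WT (median 96.3) and 47.4 to 142.3 CPM in B3AR-Tg (median 103.5). Of the 6, 5 had negative estimates and 1 a positive one, Acta2 (log2 fold change 0.42). In such bulk libraries, fewer cells of a type and less RNA per cell cannot be told apart, and the part of these cells in the values below was not tested.

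In the fit with genotype alone, expression of the nuclear genes of complexes III to V was close between the genotypes. Of the 49 members that passed the low-count filter, 1 was higher in B3AR-Tg and 0 were lower by edgeR's quasi-likelihood test at a Benjamini-Hochberg adjusted p under 0.05. In the same fit 2.03% of the 10945 tested genes were called higher and 2.88% lower, so 4.91% in all. The gene called was Uqcrq, a small supernumerary subunit of complex III. Without adjustment, 5 members were higher and 2 lower at p under 0.05, against 19.3% of all tested genes in either direction. No member had groups of animals that did not overlap, which 0.448% of all tested genes did. The row left out by the filter was a second entry for Atp5o, with 2 to 40 counts per library, whose exons overlap those of the first entry and of Donson.

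The estimates of this fit were also narrow. The median log2 fold change of the 49 members was 0.05, beside 0.006 over all tested genes, and the quartiles ran from -0.04 to 0.16. The 95% interval of the difference lay inside a 1.5-fold change in either direction for 46 of the 49 members (93.9%), a share that was 66.1% over all tested genes. Abundant genes have smaller errors: the median standard error was 0.14 over all tested genes, 0.09 over the 933 genes at 100 CPM or more and 0.10 over the members. The 95% interval lay inside a 1.25-fold change for 29 members and inside a 2-fold change for all 49. The 3 members whose interval reached past 1.5-fold were Uqcrq, the assembly factor Cox19 and Atp5g2, a gene for subunit c. Estimates were positive for 31 members (63.3%) and negative for 18, beside 51.1% positive over all tested genes. This split of the members moved with the model. With libraries scaled by their totals alone, 42 were positive, but the median of all tested genes then also rose, from 0.006 to 0.08. The number was 7 when the level of fibroblast and endothelial markers was a covariate (its correlation with genotype was -0.755). In that fit the median log2 fold change was -0.19 over the members and 0.001 over all tested genes. The cause of this shift was not tested.

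**Figure D1:**
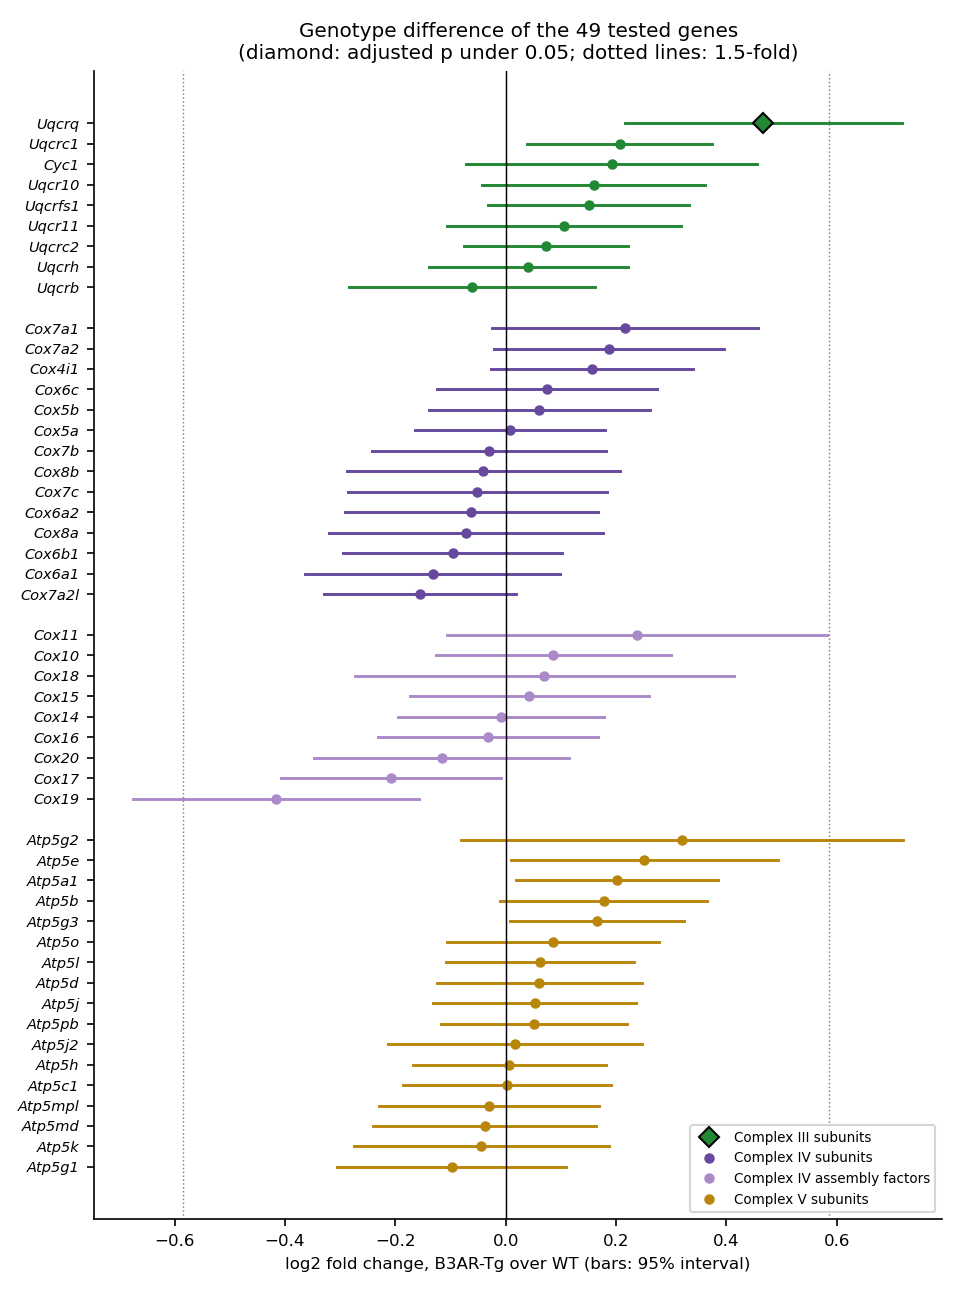
Log2 fold change of B3AR-Tg over WT (horizontal axis) for the 49 tested genes, grouped by complex; bars are 95% intervals of edgeR's fit over 8 animals per genotype, and dotted lines mark a 1.5-fold change. The diamond marks Uqcrq at 0.47, the 1 gene past the threshold, while the intervals of 46 genes stay between the dotted lines.

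In the fit with genotype alone, the complexes differed in the sign of their estimates, beside 51.1% positive over all tested genes. In complex III 8 of 9 members had a positive estimate (median log2 fold change 0.15), and in complex V 13 of 17 did (median 0.05). In complex IV 6 of 14 subunits and 4 of 9 assembly factors were positive, with medians of -0.04 and -0.01. Whether these medians differ between complexes was not tested, because genes of a complex are not replicates. The median standard error of a member was 0.10 on the same scale.

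Levels per kilobase of transcript were mostly lower for assembly factors than for subunits, and the ranges overlapped. In WT animals the 9 assembly factors lay between 4.49 and 57.2 CPM per kb, and the 14 subunits of complex IV between 50.4 and 1270 CPM per kb, so Cox20 (57.2) and Cox14 (54.6) stood above the subunit gene Cox6a1 (50.4). The highest levels in each complex were those of Uqcrb in complex III (1004 ± 169 CPM per kb, SD, n = 8), of Cox4i1 in complex IV (1270 ± 94.5) and of Atp5b in complex V (1621 ± 122). Atp5b and Atp5a1 (1343 ± 116) encode the beta and alpha subunits that alternate in the catalytic head, and both stood above every complex III gene. Within complex III the lowest was Uqcrq, at 55.95 ± 10.3 CPM per kb, followed by Cyc1 at 200.4 ± 16.1, so the 1 gene past the threshold was also the least abundant of its complex in these counts. No near-identical copy of Uqcrq and no gene of the count table with overlapping exons was found in GENCODE M21, and whether its reads were assigned elsewhere was not tested. The spread within genotypes, pooled over both, was modest. Its coefficient of variation lay between 7.39% (Uqcrc2) and 31.0% (Atp5g2), with a median of 13.4%.

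**Figure D2:**
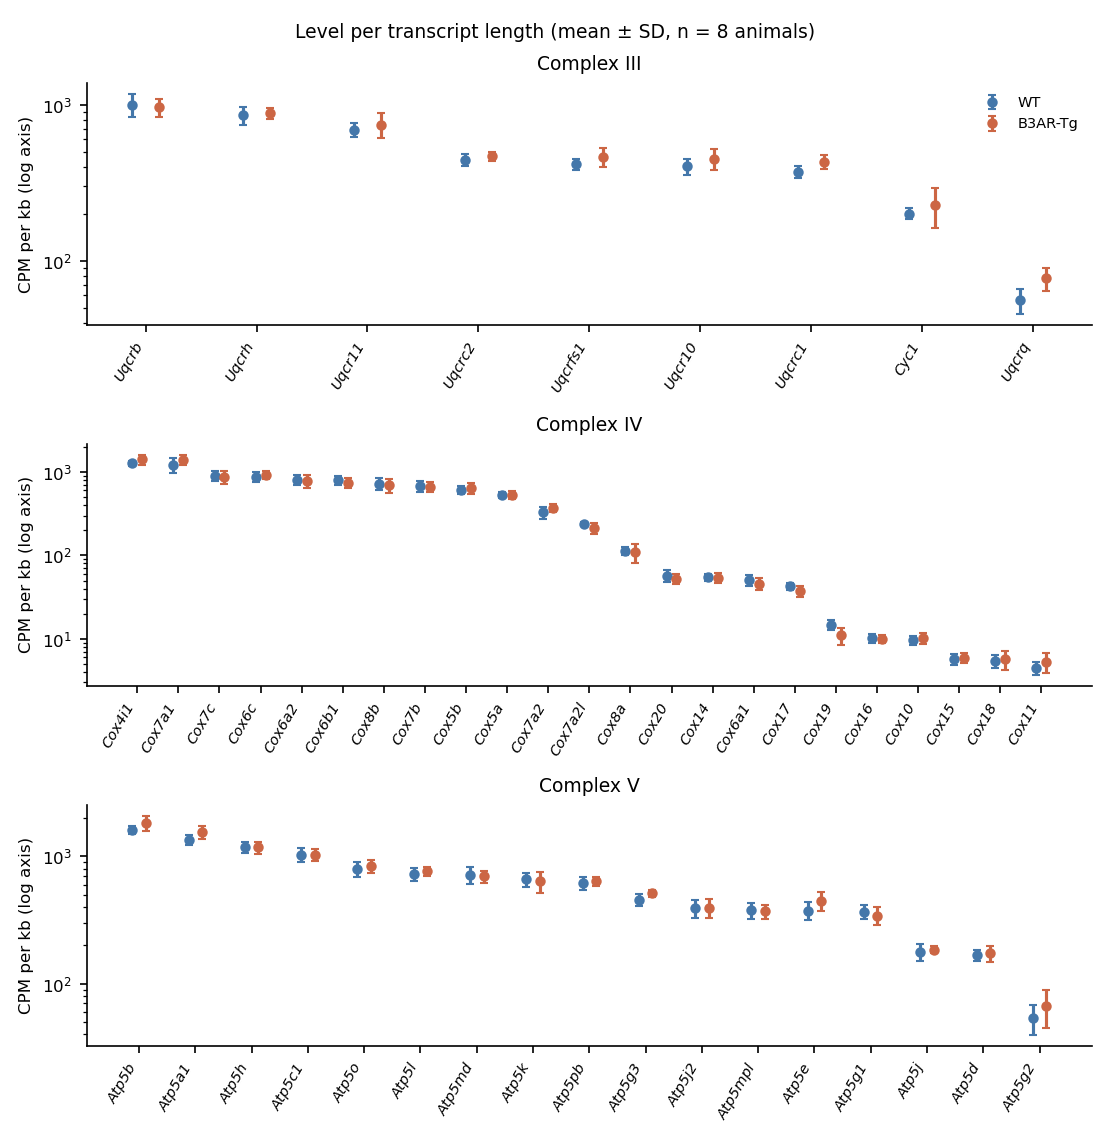
Level per transcript length (CPM per kb, log axis) of the tested genes of each complex, ordered by the WT mean; points are means and bars SD over 8 animals per genotype. Assembly factors such as Cox11 (4.49 in WT) sit at the low end of complex IV, and Uqcrq (55.95 in WT) is lowest in complex III.

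Uqcrq (chromosome 11) encodes the ubiquinone-binding protein QP-C, which lies beside cytochrome b in complex III. Its level ran from 40.5 to 67.4 CPM in WT with a median of 54.7, and from 52.4 to 93.6 CPM in B3AR-Tg with a median of 76.8. Of the 8 B3AR-Tg animals, 7 lay above the WT median and 6 above the highest WT animal, but the lowest B3AR-Tg animal lay below the WT median, so the groups overlapped. The log2 fold change was 0.47 ± 0.12 (SE), a 1.38-fold higher level, with an edgeR adjusted p of 0.0289. The call was lost without any 1 of 6 animals (WT replicates 2, 4 and 8 and B3AR-Tg replicates 4, 5 and 8), where the adjusted p lay between 0.0528 and 0.0665, and with the marker level of other cells as a covariate (adjusted p = 0.295), while its log2 fold change was then still 0.47.

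The other subunits of complex III did not pass. Uqcrc1, core protein 1, came nearest: it ran from 530.0 to 732.1 CPM in WT (median 606.3) and from 608.0 to 786.1 CPM in B3AR-Tg (median 729.2). All 8 B3AR-Tg animals were above the WT median, with 4 above the highest WT animal, and a log2 fold change of 0.21 ± 0.08 (SE) had an edgeR adjusted p of 0.152. Its partner core protein 2, Uqcrc2, which is needed for a stable dimer, had a log2 fold change of 0.07 ± 0.07.

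The electron carriers of complex III were close between genotypes. Cyc1, cytochrome c1, which hands electrons to cytochrome c, ran from 279.6 to 357.8 CPM in WT (median 297.8) and from 260.3 to 573.4 CPM in B3AR-Tg (median 326.3). The high B3AR-Tg value came from replicate 3 alone, and the next was 386.8 CPM. Its log2 fold change was 0.19 ± 0.13 (SE; edgeR adjusted p = 0.435). Uqcrfs1, the Rieske iron-sulfur protein, had 508.2 to 624.2 CPM in WT and 477.1 to 744.3 CPM in B3AR-Tg (log2 fold change 0.15 ± 0.09, edgeR adjusted p = 0.367).

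Among the small subunits, Uqcr10 and Uqcr11 had log2 fold changes of 0.16 and 0.11. Uqcrh, the acidic hinge protein at the docking site of cytochrome c, had 357.1 to 540.1 CPM in WT and 403.3 to 531.3 CPM in B3AR-Tg, with a log2 fold change of 0.04 ± 0.09. The B3AR-Tg range lay inside that of WT. Uqcrb, a ubiquinone-binding subunit, was the 1 complex III gene with a negative estimate (-0.06 ± 0.11), and its estimate was 0.02 with totals alone, where the median of all tested genes was 0.08.

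**Figure D3:**
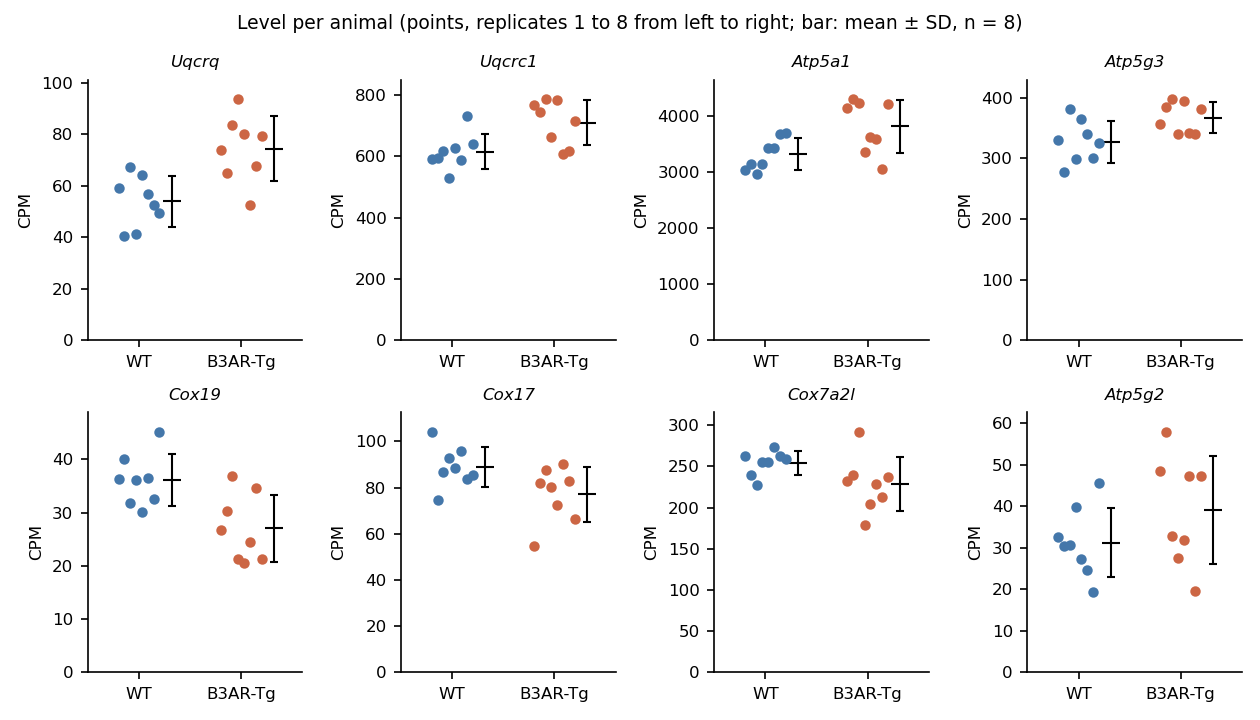
CPM of 8 genes in every animal; points are the animals in the order of their replicate numbers, and the bar beside them is the mean ± SD of 8 animals. For Uqcrq 6 B3AR-Tg animals lie above the highest WT animal, for Cox19 5 lie below the lowest, and for every gene shown the groups overlap.

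None of the 14 complex IV subunit genes passed the test, at either an adjusted or an unadjusted p under 0.05. Cox4i1, which encodes the widely expressed form of subunit 4 and binds the regulatory nucleotides of the complex, ran from 800.0 to 1015 CPM in WT (median 982.8) and from 801.7 to 1220 CPM in B3AR-Tg (median 1126). In B3AR-Tg 5 animals were above every WT animal and 3 below the WT median. The log2 fold change was 0.16 ± 0.09 (SE; edgeR adjusted p = 0.344), and it was 0.13 to 0.21 on leaving out each animal in turn. Its hypoxia-linked counterpart Cox4i2 was below the mean count of 10.

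Cox5a and Cox5b, the matrix-side subunits next to subunit 4, had log2 fold changes of 0.01 ± 0.08 and 0.06 ± 0.10. For the small membrane subunits the values were 0.07 for Cox6c, -0.03 for Cox7b and -0.05 for Cox7c, and that of Cox6b1, which faces cytochrome c, was -0.10. Cox7c has 3 copies in the annotation that are at least 95% identical to its transcript, with counts equal to 8.96% of its own, most of them in Gm12338, and how reads shared with such copies were assigned is not given in the sources used here.

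Cox7a2l encodes a relative of subunit 7a that links complexes III and IV into a supercomplex. It ran from 227.2 to 273.6 CPM in WT (median 257.1) and from 179.3 to 292.4 CPM in B3AR-Tg (median 230.5). In B3AR-Tg 7 animals were below the WT median and 3 below the lowest WT animal, while replicate 3 was above every WT animal. The log2 fold change was -0.16 ± 0.08 (SE), and the edgeR adjusted p was 0.323.

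Subunits 6a, 7a and 8 each have a heart and muscle gene (Cox6a2, Cox7a1 and Cox8b) and a widely expressed gene (Cox6a1, Cox7a2 and Cox8a), and switches between them are a known mark of muscle development. The 250 bases upstream of the RefSeq start (build GRCm38.p6) are shown for 2 of these pairs, on the gene's own strand and 5′ to 3′, because the heart genes and their partners differ in CG dinucleotides, which are in capitals. The regions are chr7:30183921-30184170 (plus strand) for Cox7a1, chr9:79759854-79760103 (minus) for Cox7a2, chr7:140900447-140900696 (minus) for Cox8b and chr19:7217617-7217866 (minus) for Cox8a.
Cox7a1: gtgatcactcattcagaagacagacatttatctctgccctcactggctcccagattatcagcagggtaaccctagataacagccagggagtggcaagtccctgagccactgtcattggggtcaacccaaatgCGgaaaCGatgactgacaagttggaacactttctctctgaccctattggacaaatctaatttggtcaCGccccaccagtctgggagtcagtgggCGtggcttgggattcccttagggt
Cox7a2: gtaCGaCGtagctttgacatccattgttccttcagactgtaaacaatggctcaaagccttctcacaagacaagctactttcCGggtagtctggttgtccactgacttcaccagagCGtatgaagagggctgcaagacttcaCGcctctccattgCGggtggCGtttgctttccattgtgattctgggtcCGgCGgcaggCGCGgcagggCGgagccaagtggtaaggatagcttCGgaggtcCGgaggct
Cox8b: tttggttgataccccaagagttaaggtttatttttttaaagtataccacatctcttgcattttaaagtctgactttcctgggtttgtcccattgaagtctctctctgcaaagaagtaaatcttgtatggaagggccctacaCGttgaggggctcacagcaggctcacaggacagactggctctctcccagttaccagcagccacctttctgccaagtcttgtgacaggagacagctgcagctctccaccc
Cox8a: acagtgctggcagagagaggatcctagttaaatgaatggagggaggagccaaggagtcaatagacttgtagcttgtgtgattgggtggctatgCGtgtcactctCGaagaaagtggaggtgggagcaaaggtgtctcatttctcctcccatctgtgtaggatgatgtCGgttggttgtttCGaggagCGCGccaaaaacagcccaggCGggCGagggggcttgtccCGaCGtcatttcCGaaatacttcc
The heart genes had 4 (Cox7a1) and 1 (Cox8b) such dinucleotides, and the widely expressed genes had 14 (Cox7a2) and 11 (Cox8a). The median over the 38 member promoters in the RefSeq table was 15, and over those of 8586 tested genes it was 18. Low numbers were not particular to the heart genes, as Cox7b and Uqcr10 had 5 each and Atp5l had 7. Cox6a2 had no promoter in the RefSeq table, so the 6a pair could not be compared.

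Transcripts of the heart isoforms were the more abundant in every animal of both genotypes. Per kilobase, Cox6a2 exceeded Cox6a1 by 16.6-fold in WT and 16.2-fold in B3AR-Tg at the median, with single animals between 11.3 and 20.03-fold. The corresponding medians were 3.70 and 3.81 for Cox7a1 over Cox7a2 (2.79 to 4.65), and 6.04 and 6.69 for Cox8b over Cox8a (4.76 to 8.05). A ratio within 1 library does not depend on how libraries are scaled. On the log2 scale the B3AR-Tg mean exceeded the WT mean by 0.07 for the 6a pair, 0.04 for the 7a pair and 0.05 for the 8 pair, and an exact permutation test over all splits of the animals gave p-values of 0.559, 0.707 and 0.669, each 0.707 after adjustment over 6 pairs.

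Both genes of the 7a pair had positive estimates of similar size. Cox7a1 ran from 333.0 to 567.6 CPM in WT (median 517.9) and from 478.1 to 684.6 CPM in B3AR-Tg (median 537.8), and Cox7a2 from 149.6 to 253.0 CPM (median 219.8) and from 195.7 to 282.4 CPM (median 248.7). The log2 fold changes were 0.22 ± 0.12 and 0.19 ± 0.10, each with an edgeR adjusted p of 0.324. The genes of the other pairs had negative estimates, from -0.13 for Cox6a1 to -0.04 for Cox8b, and those of Cox6a2, Cox8a and Cox8b were 0.009 to 0.05 when libraries were scaled by totals alone, a setting that moved the median of all tested genes from 0.006 to 0.08.

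**Figure D4:**
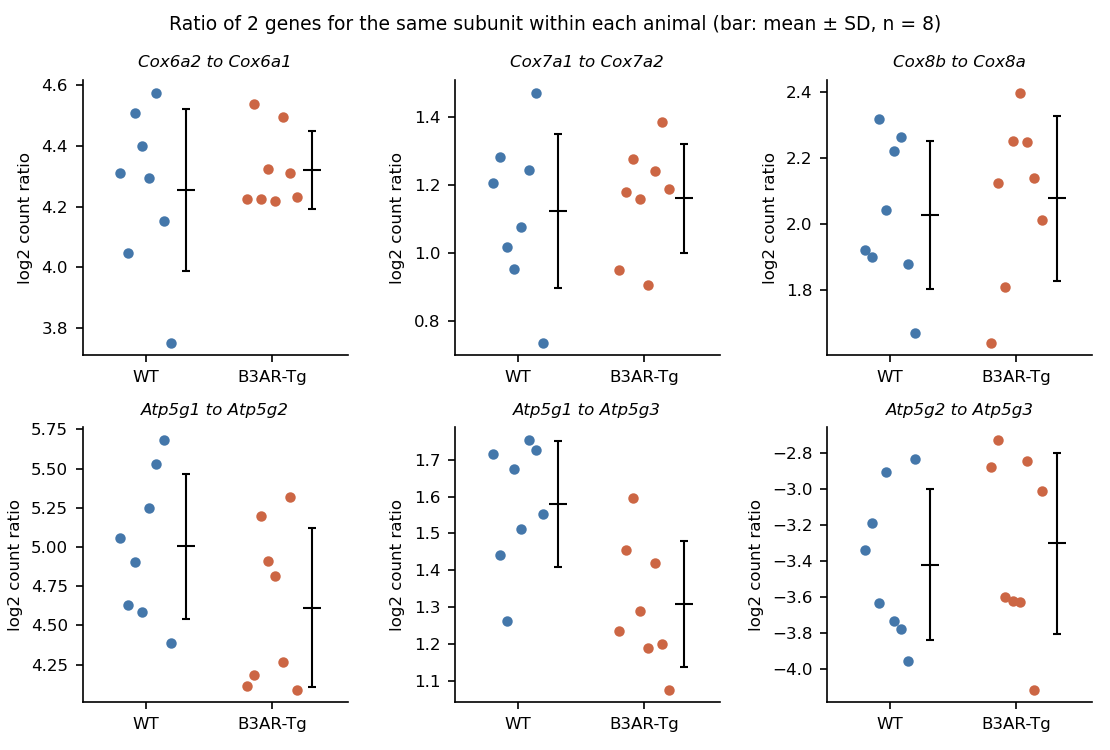
Log2 ratio of the counts of paired genes for the same subunit in each animal (vertical axes, not starting at 0), with the mean ± SD of 8 animals per genotype. The heart and muscle isoforms of complex IV (upper row) have like ratios in both genotypes, and the ratio of Atp5g1 to Atp5g3 is below the WT median in all 8 B3AR-Tg animals.

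The 9 assembly factors of complex IV deliver copper, heme A and nascent subunits to the growing complex. Cox19 (chromosome 5), a twin-cysteine protein of the intermembrane space tied to copper delivery, had the lowest estimate of all 49 members. It ran from 30.1 to 45.2 CPM in WT (median 36.2) and from 20.6 to 36.9 CPM in B3AR-Tg (median 25.7). In B3AR-Tg 7 animals were below the WT median and 5 below the lowest WT animal, and the groups overlapped through replicates 2, 3 and 7. The log2 fold change was -0.42 ± 0.12 (SE; 95% interval -0.68 to -0.16), and the edgeR adjusted p of 0.0579 missed the threshold. DESeq2 (adjusted p = 0.0338) and limma voom (0.0162) both called it, as did edgeR without any 1 of 4 animals (WT replicates 3 and 5, B3AR-Tg replicates 3 and 7). The edgeR adjusted p was higher than in the main comparison with totals alone (0.142) and with the marker covariate (0.350), and it reached 0.130 on leaving out B3AR-Tg replicate 5.

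Cox17, the copper chaperone that supplies the copper centres, ran from 74.8 to 104.3 CPM in WT (median 87.7) and from 54.8 to 90.4 CPM in B3AR-Tg (median 81.05). In B3AR-Tg 6 animals were below the WT median and 3 below the lowest WT animal. On the log2 scale the change was -0.21 ± 0.10, with an edgeR adjusted p of 0.241. Cox11, which places copper in subunit 1, was estimated in the other direction, at 0.24 ± 0.17 (edgeR adjusted p = 0.456), from 4.11 to 6.60 CPM in WT and 4.40 to 9.27 CPM in B3AR-Tg. It was the least abundant tested member per kilobase, and 48.3% of its annotated exon bases overlap Tom1l1 on the opposite strand.

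Cox10 and Cox15, which make heme A, had log2 fold changes of 0.09 ± 0.10 and 0.04 ± 0.10. Values for the other factors were 0.07 for Cox18, -0.01 for Cox14, -0.03 for Cox16 and -0.12 for Cox20. Cox18 and Cox20 both serve the membrane insertion and maturation of subunit 2. Opposite-strand exons of Hnrnpu overlap 91.1% of the exon bases of Cox20, and the readthrough gene Gm20498 shares 56.8% of those of Cox16; the strand setting of the counting is not given in the sources used here.

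In complex V both catalytic head genes had positive estimates that did not pass. Atp5a1, the alpha subunit, ran from 2974 to 3701 CPM in WT (median 3286) and from 3053 to 4302 CPM in B3AR-Tg (median 3890). In B3AR-Tg 7 animals were above the WT median and 4 above the highest WT animal. Its log2 fold change was 0.20 ± 0.09, with an edgeR adjusted p of 0.207. Atp5b, the beta subunit that holds the catalytic sites, had 2856 to 3453 CPM in WT (median 3069) and 2638 to 4187 CPM in B3AR-Tg (median 3552), with a log2 fold change of 0.18 ± 0.09 (edgeR adjusted p = 0.288). Of its 8 B3AR-Tg animals 5 exceeded every WT animal, and 1 was below every WT animal.

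The central stalk subunits gave unequal estimates. Atp5e, the epsilon subunit, ran from 121.3 to 189.8 CPM in WT (median 165.6) and from 137.4 to 220.3 CPM in B3AR-Tg (median 198.4), a log2 fold change of 0.25 ± 0.12 (edgeR adjusted p = 0.242). Here 5 B3AR-Tg animals were above every WT animal. Atp5c1, the gamma shaft, had a log2 fold change of 0.002 ± 0.09 and Atp5d, the delta subunit, 0.06 ± 0.09. In the peripheral stalk, which keeps the head from turning with the ring, the values were 0.09 for Atp5o, 0.05 for Atp5pb, 0.05 for Atp5j and 0.007 for Atp5h. For the small membrane subunits, several of which shape the dimer, they were 0.06 for Atp5l, 0.02 for Atp5j2, -0.03 for Atp5mpl, -0.04 for Atp5md and -0.04 for Atp5k.

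Subunit c, which forms the proton-driven ring, is encoded by 3 genes, Atp5g1, Atp5g2 and Atp5g3, whose mature proteins are the same. Atp5g3 ran from 277.1 to 381.4 CPM in WT (median 328.0) and from 339.6 to 397.7 CPM in B3AR-Tg (median 368.8), so all 8 B3AR-Tg animals were above the WT median and 3 above the highest WT animal. Its log2 fold change was 0.17 ± 0.08, with an edgeR adjusted p of 0.235. Atp5g1 ran from 753.0 to 1146 CPM in WT (median 976.3) and from 780.5 to 1203 CPM in B3AR-Tg (median 870.8), a log2 fold change of -0.10 ± 0.10 with 6 B3AR-Tg animals below the WT median.

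The log2 ratio of Atp5g1 to Atp5g3 within an animal was 1.58 ± 0.17 (SD, n = 8) in WT and 1.31 ± 0.17 (SD, n = 8) in B3AR-Tg. All 8 B3AR-Tg animals were below the WT median and 4 below the lowest WT animal. The difference was -0.27, with an exact two-sided permutation p of 0.00917 that became 0.0550 after Benjamini-Hochberg adjustment over the 6 pairs, so it did not pass. It passed without WT replicate 3 (exact permutation, adjusted p = 0.0177) or without B3AR-Tg replicate 3 (0.0187), and over all animals left out the adjusted p ran from 0.0177 to 0.107.

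Atp5g2 had the highest estimate in complex V, 0.32 ± 0.19, from 19.3 to 45.6 CPM in WT (median 30.5) and 19.5 to 58.0 CPM in B3AR-Tg (median 39.99; edgeR adjusted p = 0.388). Its transcript is 100% identical over 645 bases to the processed pseudogene Gm10175, which held a mean of 1336 counts per library beside 365 for Atp5g2. With the counts of Gm10175 added, the log2 fold change was 0.01 (edgeR adjusted p = 0.973). The level of this gene is therefore uncertain. Its ratios to the other genes for subunit c did not pass either. Between B3AR-Tg and WT, the log2 ratio of Atp5g1 to Atp5g2 differed by -0.39 (exact permutation, adjusted p = 0.39). That of Atp5g2 to Atp5g3 differed by 0.12 (exact permutation, adjusted p = 0.71). Of the other 48 tested members, 2 had copies with more than 5% of their counts, Cox7c and Cox16.

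Summed over the nuclear subunit genes of each complex, levels in the genotypes overlapped. Complex III summed to 3326 to 4272 CPM in WT (median 3855) and 3521 to 4800 CPM in B3AR-Tg (median 4148). Complex IV summed to 4619 to 6667 CPM in WT (median 5889) and 4754 to 7077 CPM in B3AR-Tg (median 5908), and complex V to 11610 to 14420 CPM (median 13450) and 11540 to 16350 CPM (median 14230). The ratio of the B3AR-Tg to the WT mean was 1.08 for complex III, 1.02 for complex IV and 1.08 for complex V. For the assembly factors it was 0.929, with 254.4 to 307.6 CPM in WT and 234.9 to 297.0 CPM in B3AR-Tg.

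The same animals were low or high for most members. WT replicate 2 was the lowest WT animal for 33 of the 49 members and for the sums of complexes III, IV and V and of the assembly factors. B3AR-Tg replicate 7 was the lowest B3AR-Tg animal for 35 members, and B3AR-Tg replicates 3 and 2 were the highest for 24 and 17. WT replicate 2 and B3AR-Tg replicate 7 were also the lowest of their genotypes in the summed level of 95 cytosolic ribosomal protein genes, and B3AR-Tg replicate 3 was the highest. Without WT replicate 2 the members' median log2 fold change was 0.02, and without B3AR-Tg replicate 7 it was 0.07. Ribosomal protein genes, whose transcripts are also short, had a B3AR-Tg to WT ratio of means of 0.900 (9974 ± 726 CPM in WT and 8976 ± 848 in B3AR-Tg, SD, n = 8).

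By transcript length, estimates of the members and of all genes differed in sign among short transcripts. Of the members 30 had transcripts under 1000 bases, with a median log2 fold change of 0.03, while the 770 tested genes of that length had a median of -0.07. For the 19 longer members the median was 0.06, and for the 10160 longer genes it was 0.01.

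The mitochondrially encoded partners all had negative estimates, and none passed. mt-Cytb, the cytochrome b of complex III, ran from 5845 to 12110 CPM in WT (median 8075) and from 4544 to 9188 CPM in B3AR-Tg (median 6953), with a log2 fold change of -0.25 ± 0.15 (edgeR adjusted p = 0.396). The values of mt-Co1, mt-Co2 and mt-Co3, the core of complex IV, were -0.13, -0.26 and -0.21, and those of mt-Atp6 and mt-Atp8 of complex V were -0.27 and -0.30. Their adjusted p-values in the edgeR fit lay between 0.291 and 0.561. These 6 genes share 1 genome and long precursor transcripts, so their values are not independent.

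Set against the nuclear subunits of the same complex in the same animal, the summed mitochondrial levels were 2.13 ± 0.50 (SD, n = 8) times the nuclear sum in WT and 1.70 ± 0.45 in B3AR-Tg for complex III. For complex IV the ratios were 33.7 ± 2.69 and 29.8 ± 3.60, with 5 of 8 B3AR-Tg animals below the lowest WT animal, and for complex V they were 0.966 ± 0.24 and 0.760 ± 0.20. The groups overlapped for all 3 complexes, and these sums are given without a test. The mitochondrially encoded share of all counts was 18.8% to 27.5% in WT and 20.02% to 23.6% in B3AR-Tg, and WT replicate 2 had the lowest share of all animals.

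**Figure D5:**
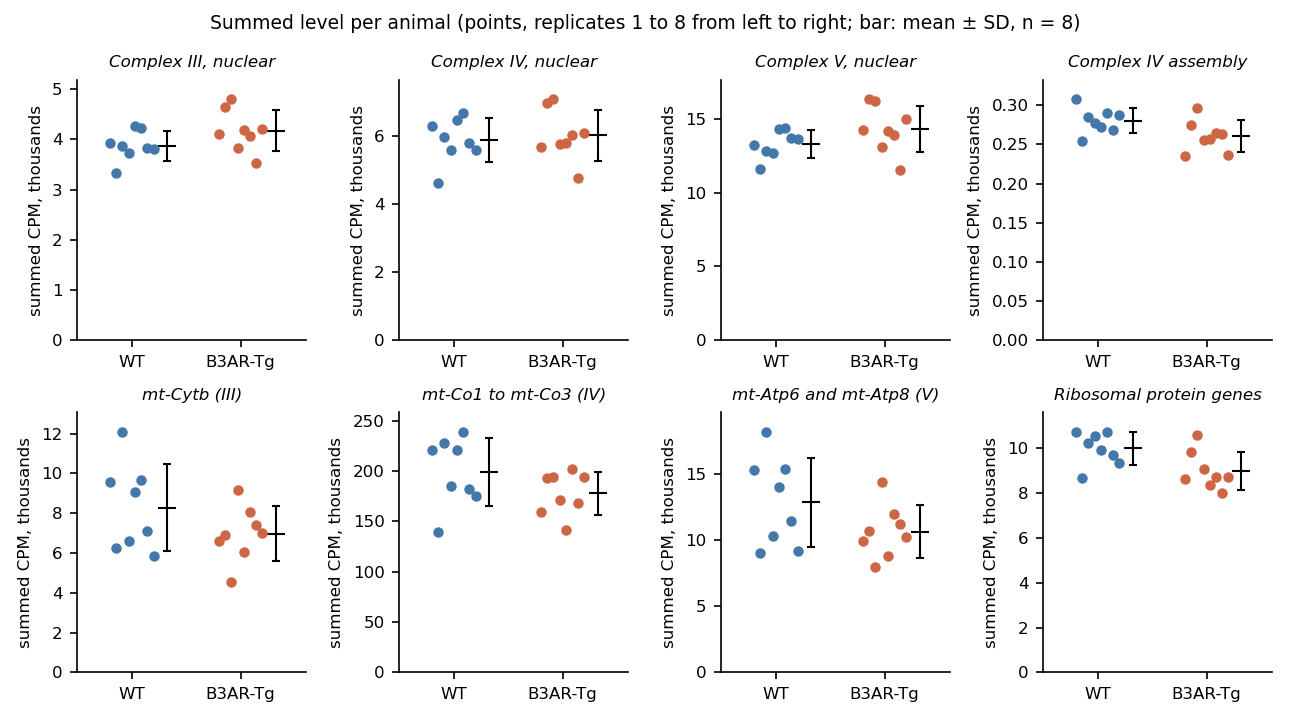
Summed CPM, in units of 1000, of the nuclear subunits of each complex, of the complex IV assembly factors, of the mitochondrially encoded partners and of 95 cytosolic ribosomal protein genes in each animal, with the mean ± SD of 8 animals per genotype. All groups overlap, and WT replicate 2 is the lowest WT point in each nuclear panel (3326 CPM for complex III).

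Promoters of the members were searched for letters bound by factors known to drive respiratory genes. The RefSeq table held 38 of the 49 member symbols, and the 250 bases upstream of each start were read on both strands. Symbols without a promoter there included Uqcrq, the gene past the threshold, and Cyc1, Atp5a1, Cox4i1, Cox17 and Cox6a2. Of 42 promoter rows checked, 32 matched the start of a GENCODE M21 transcript of the same gene. The GABPA (NRF-2) letters CCGGAAG were present for 11 of the 38 (28.9%), beside 16.4% of the tested genes and 7.83% of all 27025 genes in the table. The NRF1 letters GCGCATG were present for 5 (13.2%), Atp5g2, Atp5k, Atp5l, Cox5b and Cox6a1, beside 6.91% and 3.68%. The letters AAGGTCA of the estrogen-related receptors were present for 2, Atp5g3 and Atp5l (5.26%, beside 3.39% of tested genes), and those of YY1, AAGATGG, for 2, Atp5j and Cox20 (5.26%, beside 5.17%). The Sp1 letters GGGCGG were present for 14 (36.8%, beside 65.1% of tested genes) and the TATA letters TATAAA for 3 (7.89%, beside 8.06%). Of these 6 motifs, the Cox19 promoter held the Sp1 letters alone and that of Atp5g2 the NRF1 letters alone. None of these motifs contains another, although Sp1 letters can lie within a few bases of GABPA letters. A match describes the sequence only.

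The name rule left out other genes around these complexes, such as cytochrome c, assembly and stability factors and Ndufa4 (log2 fold change -0.04). Of 34 such genes tested, 0 were higher and 1 was lower in B3AR-Tg by the edgeR test. Estimates were positive for 12 (35.3%, beside 51.1% of all tested genes), with a median log2 fold change of -0.02. The gene called was Atpif1, the inhibitor that stops ATP synthase from running backward. It ran from 85.2 to 132.8 CPM in WT (median 114.3) and from 62.3 to 87.85 CPM in B3AR-Tg (median 77.8), and 7 of 8 B3AR-Tg animals were below the lowest WT animal. Its log2 fold change was -0.57 ± 0.09, beyond that of every complex V subunit (-0.10 to 0.32), with an edgeR adjusted p of 0.00329. With the marker level of other cells as a covariate its log2 fold change was -0.52 (adjusted p = 0.187), and in that fit the calls over all genes fell from 537 to 3. Cycs, cytochrome c itself, ran from 486.7 to 742.4 CPM in WT (median 631.1) and from 436.4 to 730.7 CPM in B3AR-Tg (median 619.1), with a log2 fold change of -0.09 ± 0.11. At an unadjusted edgeR p under 0.05, 2 of the 34 were higher and 3 lower, beside 19.3% of all tested genes in either direction. Besides Atpif1 these were Lrpprc, Slirp, Ttc19 and Uqcc3, and none of those passed after adjustment. Lrpprc and Slirp, which together stabilise mitochondrial messenger RNA, had estimates of opposite sign, 0.19 ± 0.07 and -0.24 ± 0.09 (edgeR adjusted p = 0.158 and 0.150). Ttc19 and Uqcc3, both needed for complex III, had 0.20 ± 0.08 and -0.25 ± 0.11 (edgeR adjusted p = 0.140 and 0.231).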

How the data were processed

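The values used are unnormalized counts, whole numbers for 35682 genes in 16 columns, which the authors deposited as 1 table. The submitters' processing notes name Salmon and GRCm39; versions, annotation release, strand setting and the rounding of estimated counts are not given in the sources used here. All 16 columns were mapped to animals by the identifiers in the sample titles, which also give genotype and replicate number, and 0 columns stayed unmapped. Genes were compared on the counts as deposited with edgeR 4.0.16 in R 4.3.3 (filterByExpr with minimum count 10 and minimum total 15, TMM factors, glmQLFit and glmQLFTest, genotype only, two-sided). P-values were adjusted by Benjamini-Hochberg over the 10945 genes in the fit (threshold 0.05). CPM uses the TMM-scaled library sizes, and levels per kilobase use median lengths of principal transcripts from GENCODE M21 (GRCm38), matched by gene ID for all 50 members. Intervals and counts cover 8 animals per genotype, at depths between 5985335 and 14365864 counts.

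Ratios of paired genes used a pseudocount of 0.5 counts and exact permutation over all splits of the animals (smallest possible p 0.000155), adjusted over 6 pairs; pairs with Cox4i2 or Cox6b2 were not run, as these genes were not in the fit. Near-identical copies were sought with BLAST 2.17.0 (at least 95% identity over 150 bases and 60% of the shorter transcript). Promoter sequences come from RefSeq (GRCm38.p6). Alternatives covered RLE, upper-quartile and no scaling factors, scaling without mitochondrial genes and Gm20594, both other low-count filters, DESeq2 1.42.0, limma 3.58.1 voom, a block for the replicate number, the level of other-cell markers, pseudogene counts, near-identical copies (chosen after seeing the data), an adjusted p under 0.10 and the removal of each animal. The edgeR step was tested on simulated data. Genes chosen by rule were those past the threshold, the 2 highest and 2 lowest estimates per class and the isoform pairs. The most abundant member per complex and the mitochondrial partners were also among them. Ranges in CPM are given for only some of these genes. Atp5a1, Cyc1 and Uqcrfs1 were singled out after their values were seen. Cycs was described outside these rules, as were Lrpprc, Slirp, Ttc19 and Uqcc3, which had an unadjusted edgeR p under 0.05. The members, lists and tests were chosen with earlier results of these data known.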

Additional observations from a re-analysis of the deposited data

Results flagged for a closer look

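In 132 groups of 8 animals examined, of which chance alone would be thought to mark about 6.6, 2 had 1 animal far from the rest, and both were WT replicate 2. For Cox4i1 its gap to the nearest WT animal was 0.569 of the WT range on the log2 scale (critical value 0.526), with 800.0 CPM beside 916.2 to 1015 CPM in the other WT animals. For Cox7a2 the gap was 0.550 of the range, with 149.6 CPM beside 199.7 to 253.0 CPM. Without WT replicate 2 the log2 fold changes of the members had a median of 0.02, with 27 of 50 positive.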

How the results depend on the processing

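The count of 1 member called higher (Uqcrq) and 0 lower held under 7 of the planned changes to scaling, filters and pseudogene counts and with near-identical copies added. Called higher fell to 0 with the replicate block and with the marker covariate, where calls over all genes were 3 higher and 0 lower. Called lower rose to 1 (Cox19) under DESeq2, limma voom and an adjusted p under 0.10. Leaving out each animal gave 0 to 1 higher and 0 to 1 lower. Uqcrq had an adjusted p of 0.0606 with the replicate block. Same-numbered animals did not deviate together (correlations -0.219 to 0.0935), so the numbers were not taken as a pairing, and under the block the ratio of Atp5g1 to Atp5g3 had an exact sign-flip adjusted p of 0.211. That ratio differed by -0.32 to -0.24 over the animals left out, passing in 2 cases (-0.32 without WT replicate 3 and -0.31 without B3AR-Tg replicate 3). Without WT replicate 8 the Cox6a2 to Cox6a1 ratio differed by -0.0060 and the Cox7a1 to Cox7a2 ratio by -0.018, and over all animals left out these differences reached 0.11 and 0.087.

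No estimate that changed sign was past the threshold. With the marker covariate the log2 fold changes were -0.047 for Atp5b, -0.14 for Atp5e, -0.018 for Atp5g2, -0.014 for Cox10, -0.076 for Cox4i1, -0.028 for Cox7a1, -0.12 for Cox7a2 and -0.20 for Uqcrh. With totals alone they were 0.037 for Atp5k, 0.022 for Cox6a2, 0.0086 for Cox8a, 0.052 for Cox8b and 0.021 for Uqcrb. Leaving out 1 animal gave ranges of -0.096 to 0.0125 for Atp5k (positive without B3AR-Tg replicate 7), -0.0042 to 0.075 for Uqcrh (negative without WT replicate 2) and -0.10 to 0.011 for Cox8b (positive without WT replicate 6 and without B3AR-Tg replicate 1, 7 or 8). With totals alone the median of all tested genes moved from 0.006 to 0.08, a shift of like size to that of these 5 genes. For the sign changes with the covariate, whose correlation with genotype was -0.755, and on leaving out animals, the cause was not tested.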
